A study of Mus musculus with 3 samples.

Results

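The 30 genes described here encode glucose transporters, the enzymes of glycolysis, lactate dehydrogenase, monocarboxylate transporters, the pyruvate dehydrogenase switch and the entry into the pentose phosphate pathway. They were chosen by name, with earlier results of these data known, and matched 30 of the 32245 gene symbols in the count tables. Their levels were read in 3 single-cell RNA libraries of mouse kidney at E15.5 (embryonic days are written E), with 1 library per group. All the kidneys carried *Wt1* GFPCre/+, a knock-in that inactivates 1 allele of *Wt1* and drives Cre in the lineages of nephron and stroma but not in ureteric epithelium or endothelium. *Enl*-WT kidneys were *Enl*+/+ with no treatment. *Enl*-T1 kidneys were *Enl* flox-T1/+ with no treatment. Where Cre had acted, 1 allele of *Enl* (*Mllt1*) carried a small in-frame insertion found in Wilms tumor, a childhood kidney cancer. *Enl*-T1 TDI-11055 kidneys had the same genotype, and their mothers were given TDI-11055, a blocker of the acyl-binding pocket of ENL, orally at 100 mg/kg each day from E10.5 to E14.5. Kidneys of more than 1 embryo were pooled within each untreated library, fewer in *Enl*-WT than in *Enl*-T1. The number for the treated library is not given in the sources used here, and no map from cells to embryos was used.

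Glucose enters through the transporters *Slc2a1* (GLUT1) and *Slc2a3* (GLUT3) and is trapped by hexokinases. Phosphofructokinases commit the sugar to glycolysis, the lower steps make ATP and pyruvate, and lactate dehydrogenase turns pyruvate into lactate, which leaves through *Slc16a1* (MCT1) and *Slc16a3* (MCT4). Pyruvate dehydrogenase kinases switch off pyruvate dehydrogenase, which turns pyruvate into acetyl-CoA inside mitochondria. Nephron progenitors of the cap mesenchyme are known as a glycolytic population whose use of glucose changes as they differentiate, while mature proximal tubule can make glucose and burns fatty acids. Many of these genes are known targets of the hypoxia-inducible factors, which bind the core motif CGTG preceded by A or by G.

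Promoters of 4 members are shown because these genes carried the main differences between libraries. Each runs from 250 bases before to 50 bases after a RefSeq start (GRCm38.p6), and capitals mark the core motif on either strand (CGTG preceded by A or by G; a site that reads so on both strands counts on each). They lie at chr10:62379859-62380158 on the minus strand (*Hk1*), chr6:82774405-82774704 on the minus strand (*Hk2*), chr6:125165724-125166023 on the minus strand (*Gapdh*) and chr4:150236458-150236757 on the plus strand (*Eno1*).
Hk1: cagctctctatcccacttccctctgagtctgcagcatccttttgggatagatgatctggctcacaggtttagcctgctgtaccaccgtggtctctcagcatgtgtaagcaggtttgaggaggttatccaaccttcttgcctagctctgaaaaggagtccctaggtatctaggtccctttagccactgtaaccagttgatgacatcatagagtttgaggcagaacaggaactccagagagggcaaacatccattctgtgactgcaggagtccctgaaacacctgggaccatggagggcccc
Hk2: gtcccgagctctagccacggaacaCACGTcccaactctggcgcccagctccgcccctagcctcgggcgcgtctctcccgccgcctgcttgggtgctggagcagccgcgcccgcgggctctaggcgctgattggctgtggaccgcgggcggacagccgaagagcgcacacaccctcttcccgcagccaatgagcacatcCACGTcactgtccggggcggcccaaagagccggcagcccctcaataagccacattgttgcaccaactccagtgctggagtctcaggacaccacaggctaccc
Gapdh: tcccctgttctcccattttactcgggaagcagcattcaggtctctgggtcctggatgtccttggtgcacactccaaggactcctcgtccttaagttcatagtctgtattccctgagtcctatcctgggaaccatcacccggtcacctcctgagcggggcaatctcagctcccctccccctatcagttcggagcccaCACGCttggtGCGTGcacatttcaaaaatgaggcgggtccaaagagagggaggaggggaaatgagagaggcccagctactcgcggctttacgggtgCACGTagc
Eno1: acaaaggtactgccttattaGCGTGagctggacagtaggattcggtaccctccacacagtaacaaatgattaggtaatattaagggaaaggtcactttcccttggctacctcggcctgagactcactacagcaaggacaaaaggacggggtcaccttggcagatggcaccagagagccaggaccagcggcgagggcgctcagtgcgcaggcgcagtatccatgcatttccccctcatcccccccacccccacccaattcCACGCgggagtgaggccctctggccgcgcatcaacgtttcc
Where a gene had several starts (2 for *Hk1*, 3 for *Eno1*), the one nearest the 5′ end of the gene in GENCODE was used. The *Hk1* window held 0 of these motifs, that of *Hk2* held 2, that of *Gapdh* 3 and that of *Eno1* 2. The count was highest for *Ldha*, with 7. Of the 30 members, 29 had a promoter entry (*Slc2a3* had none) and 22 of the 29, or 75.9%, held at least 1 motif, against 43.8% of all 32851 windows of this length. Each member gave 1 window, while the 43.8% is over every listed start, and base content was not matched, so these shares are not of like sets. A match describes the letters only.

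The *Enl*-WT library held 7186 barcodes, untreated *Enl*-T1 6575 and treated *Enl*-T1 6453, of which 5233, 4144 and 2754 had 1000 to 6000 genes and at most 10% mitochondrial UMIs. Median UMIs per kept cell differed widely, at 5090, 9391 and 16931.5. Of the barcodes within the mitochondrial limit, 55, 309 and 577 had more than 6000 genes, so this limit took most from the treated library. Pairs of libraries shared 10 to 14 barcodes. Clusters, made without the members and the other pathway genes, were named from marker genes: NP1-like (uncommitted nephron progenitors), NP2-like (committed progenitors), podocyte-like, proximal tubule-like, distal tubule/loop of Henle-like, ureteric epithelium-like, stroma-like and endothelial-like. NP1-like cells numbered 691, 580 and 580 and joined 4 clusters, led by *Rspo3* and *Cited1* or by cell cycle genes (*Rrm2* and *Ccne2*, *Ube2c* and *Nusap1*, *Ccnb2* and *Cenpa*). The clusters led by cell cycle genes had 0 of the NP1 markers among their top 10 genes but expressed 9 of them. The *Rspo3*-led cluster was the largest of them in *Enl*-WT (307 cells), and the *Rrm2*-led cluster was the largest in *Enl*-T1 (212 cells). The summed NP1 markers stood at 1293, 499.1 and 1018 CPM in NP1-like cells, so the class had lower levels of its own markers in *Enl*-T1. Podocyte-like and proximal tubule-like cells numbered only 39 and 33 in *Enl*-T1, and their own markers were far lower there (320 against 11170 CPM for podocytes, 398 against 5581 CPM for proximal tubule), so these classes are not compared between libraries. Distal tubule/loop of Henle-like cells, which are compared, numbered 595, 108 and 241, and their own markers stood at 2431, 1078 and 1250 CPM. NP2 markers in them stood at 1618, 1663 and 1607 CPM. The T1 insertion cannot be read from counts of transcript ends: *Mllt1* itself stood at 27.6, 22.6 and 19.7 CPM in NP1-like cells.

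Levels are given as CPM, UMIs of a gene per 1000000 UMIs of the summed cells of a class, each UMI counting 1 transcript end whatever the transcript's length. Values in a sequence of 3 are in the order *Enl*-WT, untreated *Enl*-T1 and treated *Enl*-T1. With 1 library per group there is no replicate error and no test between groups, and the intervals (exact, 95%) cover counting error only. A difference was counted as higher or lower when the ratio of CPM, divided by the median ratio of all genes tested, was at least 1.5-fold. Genes entered with a mean of at least 5 CPM and at least 30 UMIs. RNA free in the droplets was not removed, so a few CPM in a class need not come from its cells.

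The 30 genes together took 0.362%, 0.371% and 0.520% of the UMIs of NP1-like cells. The share was higher in ureteric epithelium-like cells (0.466%, 0.5004% and 0.663%) and in distal tubule/loop of Henle-like cells (0.415%, 0.453% and 0.585%) of every library, and lower in stroma-like cells (0.296%, 0.263% and 0.419%). Within NP1-like cells the sum was carried by *Pkm*, *Gapdh*, *Ldha*, *Pgam1*, *Pgk1*, *Tpi1* and *Aldoa*. Without *Gapdh*, which went from 502 to 1117 to 1730 CPM, the share was 0.312%, 0.260% and 0.347%.

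**Figure D1:**
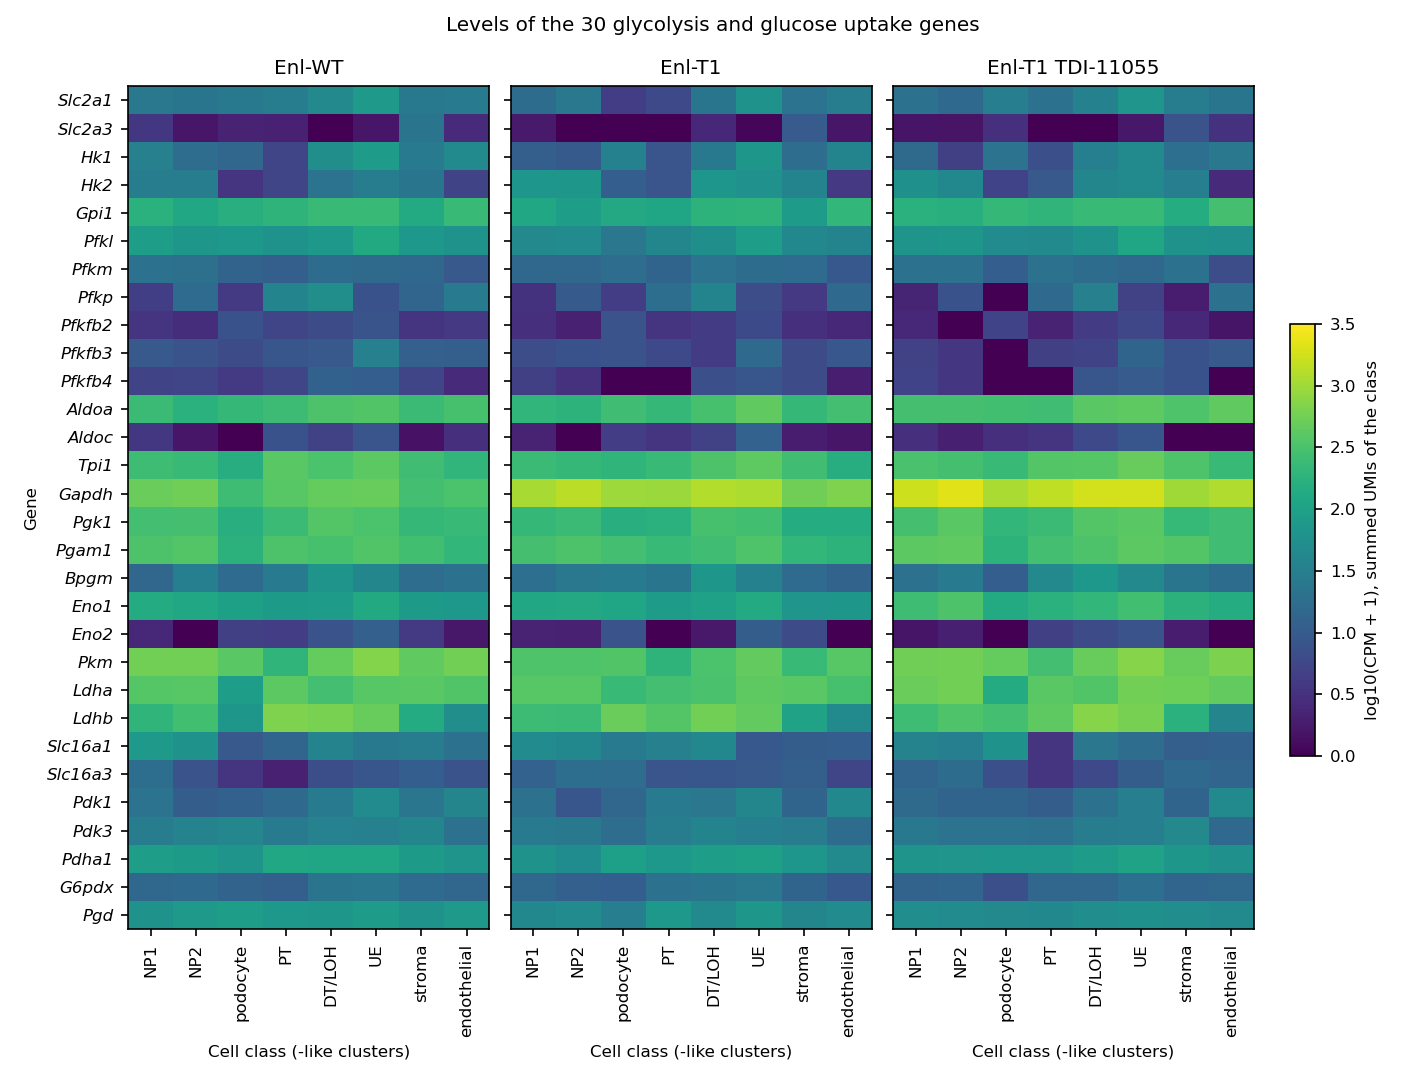
Levels of the 30 genes (rows) in 8 cell classes (columns) of the 3 libraries (panels), as log10 of CPM + 1 from summed UMIs. *Hk2* is low in endothelial-like cells of every panel, *Slc2a3* stands out in stroma-like cells, and *Gapdh* is brighter in both *Enl*-T1 panels than in *Enl*-WT.

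The glucose transporter transcripts differed between classes. *Slc2a1* stood at 77.8, 62.3 and 66.7 CPM in ureteric epithelium-like cells, the highest class in each library with an interval above that of the next class. In NP1-like cells it stood at 24.1, 16.2 and 19.6 CPM, close to the 24.8, 20.8 and 28.3 CPM of stroma-like cells. *Slc2a3* was a stromal transcript here, at 20.9, 9.09 and 6.87 CPM in stroma-like cells and at most 2.74 CPM in NP1-like cells. Its interval in stroma-like cells lay above that of the next class in *Enl*-WT and *Enl*-T1 but overlapped it in *Enl*-T1 TDI-11055.

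The hexokinases divided the classes. *Hk1*, the housekeeping isoenzyme, was highest in ureteric epithelium-like cells (84.0, 70.5 and 45.7 CPM) and was at 32.6, 10.4 and 15.45 CPM in NP1-like cells. *Hk2*, the insulin- and hypoxia-regulated isoenzyme, was at 29.4, 68.2 and 56.5 CPM in NP1-like cells. Endothelial-like cells had *Hk1* (47.0, 37.5 and 23.8 CPM) but hardly any *Hk2* (4.15, 2.82 and 1.70 CPM). *Hk2* therefore made up 47.4% of the UMIs of both genes in NP1-like cells of *Enl*-WT (41.0 to 53.8%), 86.8% in *Enl*-T1 (83.8 to 89.4%) and 78.5% with TDI-11055 (75.4 to 81.5%). The same share was 64.0%, 89.0% and 92.2% in NP2-like, 28.5%, 73.4% and 55.8% in distal tubule/loop of Henle-like, 26.3%, 45.4% and 49.8% in ureteric epithelium-like and 8.1%, 7.0% and 6.7% in endothelial-like cells.

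**Figure D2:**
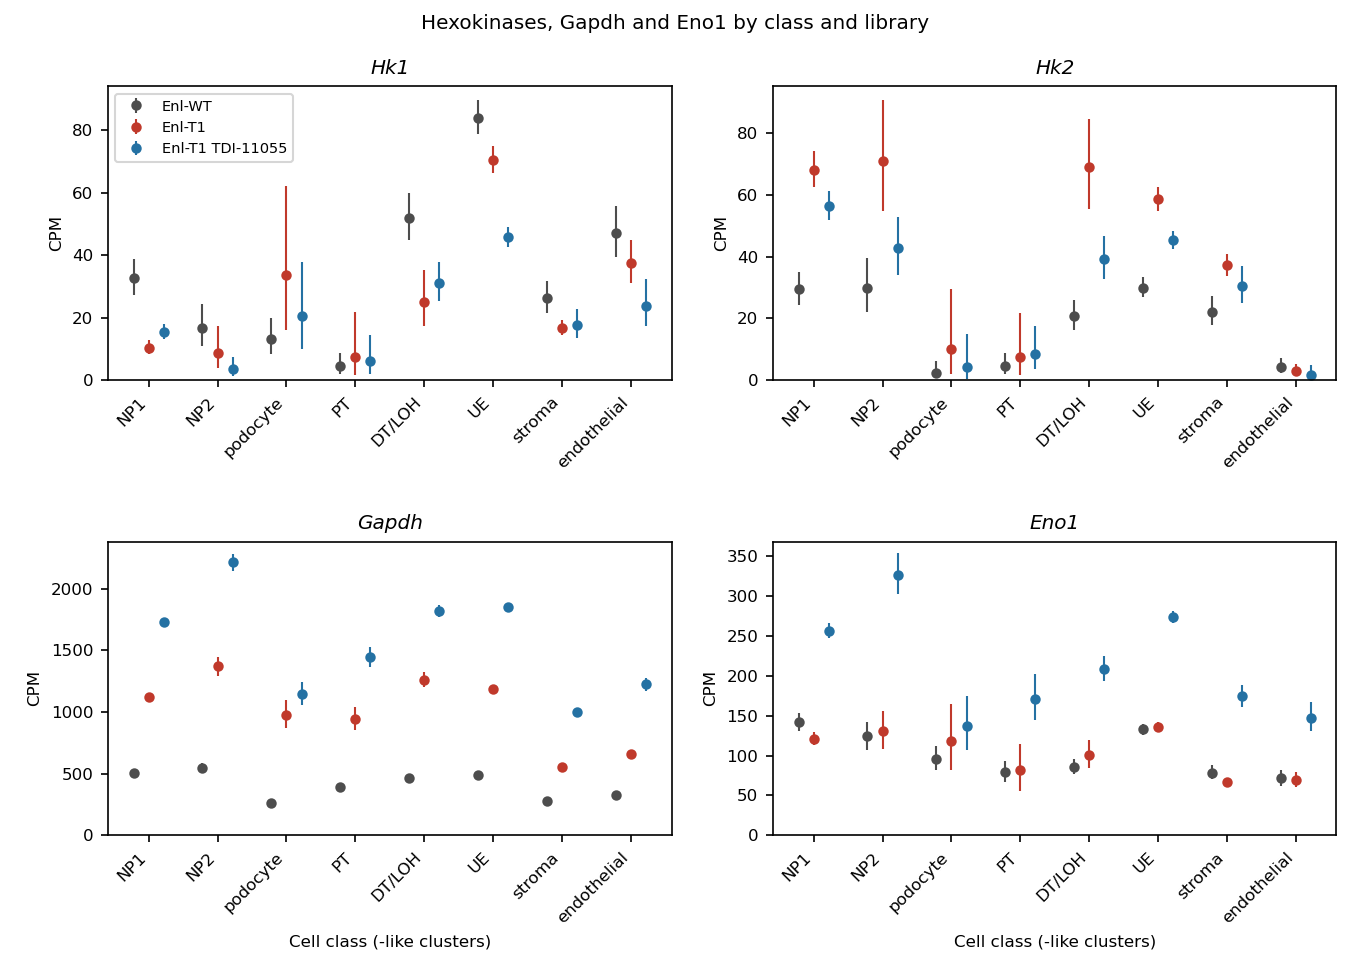
CPM (vertical axes, from 0) of *Hk1*, *Hk2*, *Gapdh* and *Eno1* in 8 cell classes, with 1 point per library and exact 95% counting intervals. *Hk1* is lower and *Hk2* higher in NP1-like cells of *Enl*-T1 than of *Enl*-WT, *Gapdh* is lowest in *Enl*-WT and highest with TDI-11055, and *Eno1* stands apart only in the TDI-11055 library, where NP1-like cells have 257 CPM.

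Among the phosphofructokinases, the liver-type subunit *Pfkl* led in NP1-like cells (88.8, 43.9 and 64.7 CPM) and was highest in ureteric epithelium-like cells (132, 87.0 and 112 CPM). The platelet-type subunit *Pfkp* was highest in distal tubule/loop of Henle-like cells (52.2, 37.2 and 32.3 CPM), where its interval overlapped that of the next class, and low in NP1-like cells (3.48, 2.26 and 1.27 CPM). *Pfkfb3*, which makes the activator fructose-2,6-bisphosphate, was at 32.3, 14.6 and 12.4 CPM in ureteric epithelium-like and at 8.46, 5.72 and 3.72 CPM in NP1-like cells.

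Among the later steps, *Pkm*, the pyruvate kinase of most tissues, was highest in ureteric epithelium-like cells (705, 457 and 740 CPM) and lowest in proximal tubule-like cells (196, 188 and 283 CPM). NP1-like cells had 575, 347 and 551 CPM. *Bpgm*, which makes and removes 2,3-bisphosphoglycerate, was highest in distal tubule/loop of Henle-like cells (63.6, 71.3 and 73.1 CPM) and stood at 13.4, 18.0 and 19.2 CPM in NP1-like cells. Proximal tubule-like cells of *Enl*-WT also held the gluconeogenic genes, with *Pck1* at 84.6 CPM and *Fbp1* at 70.2 CPM.

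The lactate dehydrogenase subunits differed between progenitors and tubule. *Ldhb*, the subunit that favours the use of lactate, was at 194, 250 and 259 CPM in NP1-like cells and at 619, 577 and 732 CPM in distal tubule/loop of Henle-like cells. *Ldha*, which favours lactate production, was at 382, 394 and 498 CPM in NP1-like and at 281, 313 and 350 CPM in distal tubule/loop of Henle-like cells. *Ldhb* was thus 33.7%, 38.9% and 34.2% of both genes in NP1-like, 68.8%, 64.8% and 67.7% in distal tubule/loop of Henle-like, 55.6%, 51.2% and 51.5% in ureteric epithelium-like and 12.9%, 12.8% and 7.8% in endothelial-like cells. In proximal tubule-like cells it was 61.1%, 56.5% and 51.6%, and in podocyte-like cells 44.7%, 68.2% and 66.8%, in classes whose own markers differed between libraries. The lactate exporter *Slc16a1* was at 75.1, 47.6 and 36.2 CPM in NP1-like cells. It was at 35.5, 42.5 and 23.4 CPM in distal tubule/loop of Henle-like and at 25.0, 8.22 and 16.8 CPM in ureteric epithelium-like cells, and the NP1-like to distal ratio was 1.24 (0.94 to 1.68) in *Enl*-T1. *Pdk1* was lower in NP1-like cells (20.4, 19.8 and 15.3 CPM) than in ureteric epithelium-like (47.2, 40.0 and 30.2 CPM) and endothelial-like cells (37.7, 41.6 and 46.0 CPM).

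How progenitors differ from other cells of the same kidney was then counted within each library, and a gene counted only where it passed 1.5-fold in the same direction in all 3 libraries. The classes were made from these cells, so these counts describe them and are no test. Against proximal tubule-like cells, 24 members could be compared and 3 were higher in NP1-like cells, with 6.91% of all genes higher, and 0 were lower, with 7.76% of all genes lower. The 3 were *Hk2* (6.45-, 9.19- and 6.31-fold), *Pkm* (2.86-, 1.84- and 1.87-fold) and *Slc16a3* (15.53-, 1.56- and 5.05-fold, from single-digit CPM in proximal tubule-like cells). The median over the members was 0.21 on the log2 scale, and that of all genes is 0 by construction. Without the *Enl*-T1 library, which held 33 proximal tubule-like cells, 5 members were higher and 2 lower. Summed proximal tubule markers in this class stood at 5581, 398 and 856 CPM, and summed NP2 markers at 623, 2251 and 1652 CPM. NP2 markers were thus the higher in both *Enl*-T1 libraries, so only in *Enl*-WT do these ratios set progenitors against cells led by proximal tubule markers.

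Against distal tubule/loop of Henle-like cells, 1 of 26 members was higher in NP1-like cells, *Slc16a3* (background 5.12%), and 5 were lower (background 9.64%). Those 5 were *Hk1*, *Pfkp*, *Pfkfb4*, *Bpgm* and *Ldhb*. The ratio of NP1-like to distal cells was 0.07, 0.07 and 0.04 for *Pfkp*. For *Bpgm* it was 0.22, 0.28 and 0.28, and for *Ldhb* 0.33, 0.48 and 0.38. The median log2 ratio of the members was −0.23, and without the *Enl*-T1 library 2 members were higher.

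Against ureteric epithelium-like cells, 1 of 27 members was higher in NP1-like cells, with a background of 8.82%, and 9 were lower, with a background of 16.2%. The higher gene was *Slc16a1* (3.16-, 6.31- and 2.40-fold). The lower genes span the pathway: *Slc2a1* at the point of entry, *Hk1*, *Pfkfb3*, *Pfkfb4*, *Aldoc*, *Bpgm*, *Eno2*, *Ldhb* and *Pdk1*. Ratios for *Slc2a1* were 0.33, 0.28 and 0.33, and those for *Hk1* were 0.41, 0.16 and 0.38. *Hk2*, in contrast, was within 1.5-fold of ureteric epithelium-like cells in every library. The median log2 ratio was −0.44, and 6 of the 27 members were above 0. Without the TDI-11055 library 2 members were higher.

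Against stroma-like cells, 3 of 25 members were higher in NP1-like cells, *Gapdh*, *Eno1* and *Slc16a1* (background 6.73%), and 1 was lower, *Slc2a3* (background 13.5%). The ratio for *Gapdh* was 1.77, 2.07 and 1.84. That for *Slc2a3* was 0.13, 0.09 and 0.09. The members' median log2 ratio was 0.09, and 5 members were higher without the *Enl*-WT library. Against endothelial-like cells, 5 of 25 members were higher, *Hk2*, *Pfkm*, *Eno1*, *Ldhb* and *Slc16a1* (background 11.3%), and 3 were lower, *Hk1*, *Pfkp* and *Pdk1* (background 17.1%). *Hk2* was 6.56-, 22.7- and 30.03-fold higher, but from only 12, 9 and 3 UMIs in endothelial-like cells, so the size of these ratios is poorly set. *Pfkp* stood at 0.12, 0.14 and 0.06 of the endothelial-like level, and the members' median log2 ratio was 0.16. Without the *Enl*-WT library 5 members were lower.

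**Figure D3:**
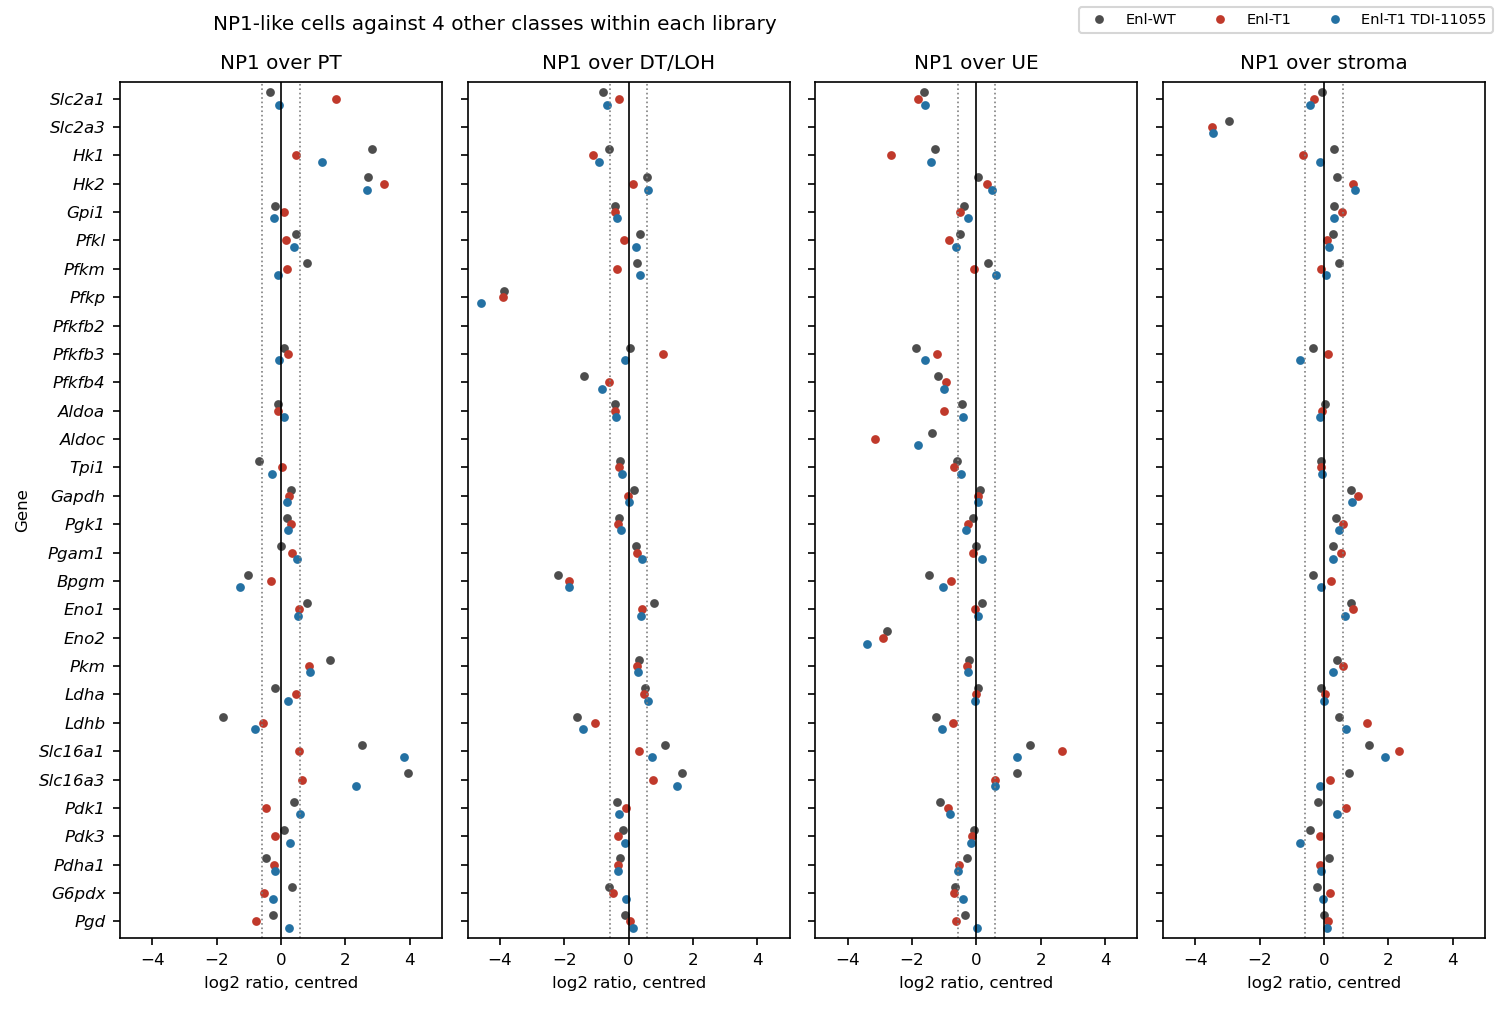
Log2 ratio of NP1-like cells to proximal tubule-like (PT), distal tubule/loop of Henle-like (DT/LOH), ureteric epithelium-like (UE) and stroma-like cells within each library (points), centred on the median gene, for members that could be compared. Dotted lines mark 1.5-fold, and the points of *Slc2a1*, *Hk1*, *Eno2* and *Ldhb* in the UE panel lie left of them in all 3 libraries.

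The study asked what the *Enl*-T1 allele does, and here the *Enl*-T1 library was set against *Enl*-WT within a class. In NP1-like cells *Hk2*, *Gapdh*, *Bpgm* and *Ldhb* were higher and *Hk1* and *Pfkl* lower. *Hk2*, at 29.4 CPM in *Enl*-WT and 68.2 CPM in *Enl*-T1, gave a ratio of 2.93 (2.39 to 3.61) relative to the median gene. *Hk1*, at 32.6 and 10.4 CPM, gave 0.40 (0.30 to 0.53). *Gapdh* gave 2.81 (2.67 to 2.95), *Bpgm* 1.68 (1.22 to 2.35), *Ldhb* 1.62 (1.49 to 1.77) and *Pfkl* 0.62 (0.53 to 0.73). The other members compared were within 1.5-fold, among them *Slc2a1*, *Ldha*, *Pgk1*, *Pkm*, *Eno1* and *Pdk1*.

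These 4 higher members were among 24 compared, with 14.2% of 9820 genes higher, and the 2 lower members stood against 13.5% lower. The members' median log2 ratio was −0.01, with 12 of 24 above 0, so as a group they did not stand away from the median gene. *Slc2a3*, *Pfkp*, *Pfkfb2*, *Pfkfb4*, *Aldoc* and *Eno2* were too low in NP1-like cells to be compared. The median gene itself lay at −0.33 on the log2 scale before centring, and without centring 2 members were higher and 5 lower, with the log2 ratio of *Ldhb* at 0.37 and that of *Bpgm* at 0.42. *Pfkl* (log2 ratio −0.49) and *Bpgm* (0.55) also fell short of 1.5-fold with at most 5% mitochondrial UMIs. Of 16 alternatives, *Bpgm* was past 1.5-fold in 13 (lowest log2 ratio 0.21), *Pfkl* in 14 and *Ldhb* in 15. Several measures moved with the same contrast: ribosomal protein genes took 19.4%, 31.0% and 30.2% of the UMIs of NP1-like cells, erythroid markers 2090, 1118 and 845.3 CPM, and the shares of cells scored as female over all classes were 26.5%, 73.3% and 35.2%. Their part in these ratios was not tested, nor was that of the lower NP1 markers and of sequencing depth.

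Within the 4 clusters of NP1-like cells the same ratio was 2.20 to 4.63 for *Hk2*, 2.69 to 2.98 for *Gapdh*, 0.32 to 0.56 for *Hk1*, 1.52 to 1.76 for *Ldhb*, 1.26 to 2.14 for *Bpgm* and 0.40 to 0.78 for *Pfkl*. Intervals spanned 1 for *Hk1* and *Pfkl* (0.56 to 1.08) in the *Ube2c*-led cluster and for *Bpgm* in the *Rrm2*-led cluster (0.71 to 2.33). In the *Ccnb2*-led cluster they did so for *Hk1*, *Bpgm* (0.48 to 4.59) and *Hk2* (0.87 to 9.83, from 4 UMIs in *Enl*-WT). *Hk2* was highest in the *Rspo3*-led cluster, at 4.63 (3.13 to 7.04). Split by sex-linked transcripts, the *Hk2* ratio was 3.02 in female and 2.17 in male cells, that of *Gapdh* 2.72 and 3.01, and that of *Hk1* 0.48 and 0.35. Of the X-linked members, *Pgk1* gave 0.97 and 0.96 and *Pdk3* 1.65 and 1.05.

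*Gapdh* needs a separate word because 86 annotated pseudogenes match the end of its transcript at 95% identity or more over at least 90 bases, against 6 for *Ldha*, 4 for *Pgk1*, 3 for *Eno1*, 1 for *Ldhb* and 0 for the other members. Among all genes compared in NP1-like cells, 13.4% of those with 0 such copies were higher in *Enl*-T1, against 29.3% of those with 1 to 4 copies and 67.3% of the 55 genes with 5 or more. Without ribosomal protein genes the last share was 47.4% of 19 genes. How reads that match several copies entered the counts was not examined, and the part of this in the *Gapdh* ratio was not tested.

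*Hk2* was also higher outside the progenitors. In distal tubule/loop of Henle-like cells *Hk2* stood at 20.7 CPM in *Enl*-WT and 69.1 CPM in *Enl*-T1, a ratio of 4.01 (2.93 to 5.49). The ratio was 2.41 (2.12 to 2.74) in ureteric epithelium-like and 2.07 (1.64 to 2.62) in stroma-like cells, while in endothelial-like cells the gene was too low to compare. In ureteric epithelium-like cells *Hk2* stood at 29.9 and 58.5 CPM. Cre is not driven in ureteric epithelium or endothelium, so ratios in those classes compare libraries in cells outside the lineages given the T1 allele. The part of the allele in the ratios of any class was not tested. *Hk1* was lower than the median gene in distal tubule/loop of Henle-like cells (0.58, 0.39 to 0.84) but within 1.5-fold in ureteric epithelium-like, stroma-like and endothelial-like cells. In the distal class this held only with the filters used: the log2 ratio of *Hk1* was −0.07 with at most 5% mitochondrial UMIs and −0.13 with no upper limit on genes. The difference between classes was not tested. Own markers of the distal class were lower in *Enl*-T1 (2431 and 1078 CPM), while NP2 markers in it stood at 1618 and 1663 CPM. The part of this in the distal ratios was not tested.

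Counted over members, 3 of 26 were higher in distal tubule/loop of Henle-like cells (*Hk2*, *Gapdh* and *Slc16a3*, background 14.3%) and 4 lower (*Slc2a1*, *Hk1*, *Pfkfb3* and *Pfkfb4*, background 15.2%). The intervals of *Slc16a3*, *Pfkfb3* and *Pfkfb4* spanned 1 there. Ureteric epithelium-like cells had 4 of 29 higher (*Hk2*, *Aldoa*, *Aldoc* and *Gapdh*, background 12.9%) and 2 lower (*Pfkfb3* and *Slc16a1*, background 9.91%). *Aldoa*, the main aldolase, went from 348 to 441 CPM, a ratio of 1.56 (1.501 to 1.63) relative to the median gene. It was past 1.5-fold in 13 of 16 alternatives (lowest log2 ratio 0.34). *Slc16a1* went from 25.0 to 8.22 CPM, a ratio of 0.41 (0.33 to 0.50). The members' median log2 ratio was 0.10 in both of these classes.

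Stroma-like cells had 3 of 27 members higher (*Hk2*, *Pfkfb4* and *Gapdh*, background 14.3%) and 4 lower (*Slc2a3*, *Pfkp*, *Pfkfb3* and *Slc16a1*, background 12.5%). *Slc2a3* went from 20.9 to 9.09 CPM (ratio 0.53, 0.40 to 0.72) and *Slc16a1* from 28.2 to 9.72 CPM (ratio 0.42, 0.32 to 0.56). *Pfkp* went from 12.7 to 2.79 CPM, a ratio of 0.27 (0.17 to 0.43). Without centring 10 members were lower in this class. Endothelial-like cells had 1 of 24 higher (*Gapdh*, background 13.2%) and 1 lower (*Slc16a1*, 0.64 with an interval of 0.40 to 1.01, background 11.5%). The median log2 ratio was −0.08 in stroma-like and −0.04 in endothelial-like cells.

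**Figure D4:**
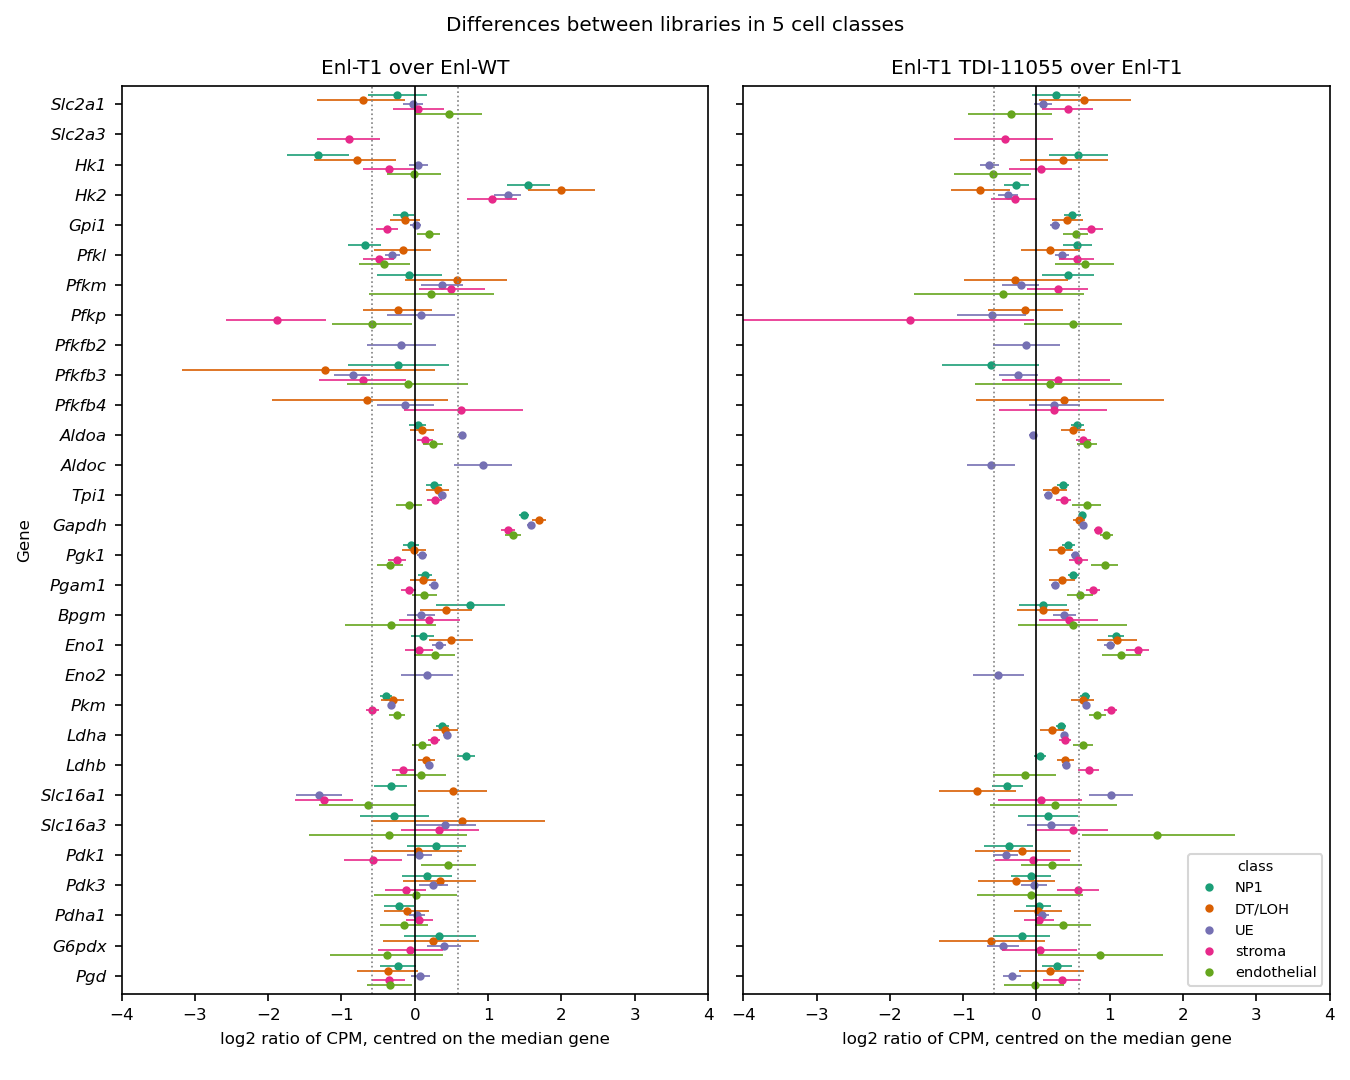
Log2 ratio of CPM between libraries, centred on the median gene, in 5 classes (colours) with exact 95% counting intervals, for members that could be compared; dotted lines mark 1.5-fold. *Hk2* and *Gapdh* lie right of the dotted line in the *Enl*-T1 over *Enl*-WT panel in NP1-like cells, and *Eno1* lies right of it in all 5 classes in the TDI-11055 panel.

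The TDI-11055 library was set against *Enl*-T1 within the same classes. This ratio and the previous one share the *Enl*-T1 library. Enolase, pyruvate kinase and *Gapdh* were higher in NP1-like cells of the treated library. *Eno1*, which makes phosphoenolpyruvate, went from 121 to 257 CPM (ratio 2.12, 1.96 to 2.29), with 142 CPM in *Enl*-WT. *Pkm* went from 347 to 551 CPM (ratio 1.58, 1.51 to 1.66), close to the 575 CPM of *Enl*-WT. *Gapdh* went from 1117 to 1730 CPM (ratio 1.54, 1.505 to 1.58) and so lay farther from the 502 CPM of *Enl*-WT than in the untreated mutant.

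Those were 3 of 24 members compared, with 6.29% of genes higher, and 1 member was lower, *Pfkfb3* (0.65, 0.41 to 1.03), with 8.38% lower. The members' median log2 ratio was 0.31, with 18 of 24 above 0. *Hk2* and *Hk1* were within 1.5-fold, at 56.5 and 15.45 CPM, and against *Enl*-WT they still stood at 2.40 (1.97 to 2.95) and 0.59 (0.47 to 0.75). Within the 4 NP1-like clusters *Eno1* gave 1.75 to 2.51 and *Pkm* 1.48 to 1.83. *Hk2* was lower past 1.5-fold in the *Rspo3*-led cluster, at 0.64 (0.51 to 0.80), and gave 0.85 to 1.00 in the clusters led by cell cycle genes. In female and male NP1-like cells *Eno1* gave 1.99 and 2.19, and *Gapdh* 1.59 and 1.35. *Gapdh* was past 1.5-fold in 12 of 16 alternatives (lowest log2 ratio 0.43) and *Pfkfb3* in 6 of 13. *Pkm* fell short of 1.5-fold with at most 5% mitochondrial UMIs (log2 ratio 0.57). Of all genes with 5 or more pseudogene copies, 5.45% were higher in this comparison, and 15.8% without ribosomal protein genes, against 6.33% of those with 0 copies. In endothelial-like cells that share without ribosomal protein genes was 47.4%.

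*Eno1* was higher by 2-fold or so in each of the other 4 classes as well. It went from 101 to 209 CPM in distal tubule/loop of Henle-like (2.14, 1.77 to 2.59), from 136 to 274 CPM in ureteric epithelium-like (2.00, 1.90 to 2.10), from 66.3 to 175 CPM in stroma-like (2.60, 2.33 to 2.89) and from 69.4 to 148 CPM in endothelial-like cells (2.23, 1.85 to 2.67). *Pkm* was also past 1.5-fold in all of them, at 1.55, 1.60, 2.02 and 1.78, though in distal tubule/loop of Henle-like cells in 12 of 16 alternatives (lowest log2 ratio 0.45). In male cells alone the *Eno1* log2 ratio of distal tubule/loop of Henle-like cells was 0.33. The TDI-11055 library differed from *Enl*-T1 in depth too, and its part was not tested.

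In distal tubule/loop of Henle-like cells 3 of 24 members were higher (*Slc2a1*, *Eno1* and *Pkm*, background 9.48%) and 3 lower (*Hk2*, *Slc16a1* and *G6pdx*, background 11.6%). *Hk2* went from 69.1 to 39.3 CPM there, a ratio of 0.59 (0.45 to 0.78), with 20.7 CPM in *Enl*-WT. In ureteric epithelium-like cells 4 of 29 were higher (*Gapdh*, *Eno1*, *Pkm* and *Slc16a1*, background 7.31%) and 3 lower (*Hk1*, *Pfkp* and *Aldoc*, background 10.3%). *Hk1* went from 70.5 to 45.7 CPM, a ratio of 0.64 (0.59 to 0.70). It was past 1.5-fold in 13 of 16 alternatives, *Pfkp* in 8 of 13 and *Aldoc* in 9 of 15. The median log2 ratio was 0.23 in the former class and 0.08 in the latter.

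Stroma-like cells had 7 of 27 members higher (*Gpi1*, *Aldoa*, *Gapdh*, *Pgam1*, *Eno1*, *Pkm* and *Ldhb*, background 10.1%) and 1 lower (*Pfkp*, from 3 UMIs in the treated library, ratio 0.30, 0.06 to 0.97, background 13.3%). Their median log2 ratio was 0.39, with 23 of 27 above 0. Stroma markers were also lower in this library, at 3014 CPM against 5242 CPM in *Enl*-T1, and the part of this was not tested. Endothelial-like cells had 11 of 24 higher (*Pfkl*, *Aldoa*, *Tpi1*, *Gapdh*, *Pgk1*, *Pgam1*, *Eno1*, *Pkm*, *Ldha*, *Slc16a3* and *G6pdx*, background 11.4%) and 1 lower, *Hk1* (background 15.6%). *Pgam1* was past 1.5-fold in 11 and *Ldha* in 12 of 16 alternatives, and *Hk1* in 11 of 15. *Pfkl* was past it in 14 and *Tpi1* in 15 of 16, with lowest log2 ratios of 0.11 and 0.20. In the same cells erythroid markers went from 2302 to 547.3 CPM and stroma markers from 146 to 6.81 CPM, and the part of this was not tested. *Pgk1*, the first ATP-making step, went from 148 to 269 CPM in endothelial-like cells (ratio 1.90, 1.67 to 2.17), and the median log2 ratio was 0.52.

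Other genes of the same biology were listed by pathway. The lists were chosen with earlier results of these data known, so their counts describe these libraries and are no test. In NP1-like cells 14 of 17 HIF targets outside glycolysis could be compared, and 5 were higher and 1 lower in *Enl*-T1 than in control cells, with a median log2 ratio of 0.33 (14.2% of all genes were higher and 13.5% lower). The higher genes were the mitophagy receptor *Bnip3* (20.2 and 29.8 CPM, ratio 1.86), *Ankrd37* (2.37), *Ddit4* (2.18), *Higd1a* (1.83) and *P4ha1* (1.503), and the lower one was *Mxi1* (0.64). All 6 HIF components compared were within 1.5-fold, with *Hif1a* at 104, 94.5 and 77.2 CPM. Against *Enl*-T1, 4 of the 14 were lower in the TDI-11055 library (*Bnip3* at 0.66, *P4ha1* at 0.64, *Kdm3a* at 0.59 and *Ero1l* at 0.57) and 1 higher (*Ddit4* at 1.51), with 8.38% of all genes lower and 6.29% higher.

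Among 11 other genes of the pyruvate dehydrogenase switch, the pyruvate carrier and monocarboxylate transport, 3 were higher in *Enl*-T1 NP1-like cells (background 14.2%). They were *Pdk2* (1.60, 1.06 to 2.47), *Mpc1* (1.74, 1.5 to 2.03) and the monocarboxylate transporter *Slc16a7* (2.77, 1.66 to 4.84). The 1 lower gene (background 13.5%) was *Pdp2* (0.63, 0.50 to 0.80). The 5 other genes of the pentose phosphate pathway and the 5 other isoenzymes compared were within 1.5-fold. Of 2 other glucose transporters *Slc2a4* gave 1.63, with an interval of 0.94 to 2.95. Of 3 gluconeogenic genes, *Pcx*, which carboxylates pyruvate, was lower (0.49). In ureteric epithelium-like cells 4 of 14 HIF targets were higher (*Bnip3* at 1.96, *Higd1a* at 2.07, *Adm* at 1.63 and *Ddit4* at 1.61, background 12.9%) and 1 lower (*Kdm3a* at 0.60, background 9.91%).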

How the data were processed

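The authors aligned 10x Chromium 3′ reads to mm10 with Cell Ranger 6.1.2 and deposited raw counts of unique molecular identifiers (UMIs) for 32285 gene rows in 3 libraries, 1 per group (7186, 6575 and 6453 barcodes). Barcodes with 1000 to 6000 genes and at most 10% mitochondrial UMIs were kept. Cells were clustered together with Seurat 5.3.0 (R 4.3.3, 2000 variable genes, 30 components, resolution 0.5, nephron cells again with 20 components and resolution 0.8), leaving out the 30 members and 75 further pathway genes, and named from marker lists, by markers among the top 10 genes and then by the mean fold of the list, with at least 3 markers detected. Doublets were scored with scanpy 1.11.5 and left in, with an alternative without the highest scores. Counts were summed per library and class (Python 3.11.15, pandas 2.3.3, scipy 1.17.1). CPM have exact Poisson and ratios exact binomial intervals (95%), for counting error only. No test between groups was possible with 1 library each. Genes needed a mean of 5 CPM and 30 UMIs, and ratios were divided by that of the median gene. Steps were tested on simulated data. Pseudogene copies were found with BLAST 2.17.0. Members and lists were chosen with earlier results of these data known. Named were members past 1.5-fold, those leading a class, and listed pathway genes past 1.5-fold. In all, 19 alternatives were tried.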

Additional observations from a re-analysis of the deposited data

Results flagged for a closer look

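*Slc16a1*, the lactate exporter, went opposite ways in 2 epithelia of the same contrast. In the TDI-11055 library against *Enl*-T1 its log2 ratio relative to the median gene was 1.01 in ureteric epithelium-like cells (8.22 and 16.8 CPM) and −0.809 in distal tubule/loop of Henle-like cells (42.5 and 23.4 CPM). The counting intervals of both ratios excluded 1. With at most 5% mitochondrial UMIs the distal log2 ratio of *Slc16a1* was −0.27. With 1 library per group the difference between these classes was not tested.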

How the results depend on the processing

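No paired analysis was possible because each group holds 1 library, and all carry the same replicate number. Of 96 member values past 1.5-fold, 58 were past it in every alternative that gave a value, and 1 changed sign: *G6pdx* in distal tubule/loop of Henle-like cells, TDI-11055 over *Enl*-T1, at 0.0559 (log2) with no upper limit on genes per barcode. Without centring, the members' median log2 ratio of *Enl*-T1 over *Enl*-WT moved to −0.342 in NP1-like, −0.201 in ureteric epithelium-like and −0.385 in stroma-like cells. In ureteric epithelium-like cells it was −0.0626 over totals without mitochondrial, ribosomal and haemoglobin genes and 0.245 with at most 5% mitochondrial UMIs. Over all alternatives, the counts of members higher and lower in *Enl*-T1 than in control cells ranged over 2 to 5 and 1 to 5 (NP1-like), 2 to 6 and 0 to 6 (distal tubule/loop of Henle-like), 2 to 5 and 1 to 4 (ureteric epithelium-like), 2 to 5 and 2 to 10 (stroma-like), and 1 to 4 and 0 to 8 (endothelial-like). For TDI-11055 over *Enl*-T1 they ranged over 1 to 7 and 0 to 2, 1 to 6 and 0 to 4, 1 to 5 and 0 to 4, 2 to 12 and 0 to 2, and 2 to 14 and 0 to 2. For NP1-like cells over other classes they ranged over 1 to 6 and 0 to 2 (proximal tubule-like), 0 to 2 and 1 to 6 (distal tubule/loop of Henle-like), 1 to 2 and 5 to 11 (ureteric epithelium-like), 1 to 5 and 0 to 1 (stroma-like), and 3 to 7 and 1 to 5 (endothelial-like). Leaving out 1 library, these were 3 to 5 and 0 to 2, 1 to 2 and 5 to 6, 1 to 2 and 9 to 11, 3 to 5 and 1, and 5 to 7 and 3 to 5, with medians of 0.15 to 0.197, −0.243 to −0.194, −0.545 to −0.42, 0.0839 to 0.176 and 0.0711 to 0.305. The cause was not tested. The class with the highest level was read in only 2 alternatives, and there it was as reported for at least 25 of 30 members in each library. Male cells alone gave no NP1-like over proximal tubule-like value, and 2 of the 19 alternatives were chosen after seeing the clusters.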

Other observations

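Of the nephron clusters without a name, 1 led by *Bmper* and *Igfbp5* held 137, 202 and 137 cells (*Enl*-WT, *Enl*-T1, *Enl*-T1 TDI-11055). *Hk2* stood at 19, 74 and 58 CPM and *Gapdh* at 480, 1035 and 1737 CPM in it. *Ldhb* was above NP1-like cells in each library, by 1.58-, 1.32- and 1.34-fold. A further cluster led by *Sst* and *Akap12* held 44, 199 and 14 cells and had lower *Gapdh* than NP1-like cells in each library (0.81, 0.69 and 0.69), with *Ldha* at 0.64, 0.79 and 0.41 of the NP1-like level.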
